A study of Mus musculus with 38 samples.

Results

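Macrophages of the injured liver were compared between 2 places in the tissue, the zone around the bile ducts and the parenchyma away from it, in mice fed the DDC diet. The comparison covered all 13 IBA1 segments of DDC-fed mice among the 38 segments analysed, 9 periportal segments (4 WT and 5 Trail.mye) and 4 parenchymal segments (2 WT and 2 Trail.mye), each from an ROI of its own. DDC injures the bile ducts and gives a cholestatic injury with a ductular reaction, an outgrowth of duct-like epithelium around the portal tract. WT mice and mice whose myeloid cells lack Trail (TrailΔmye, Trail.mye in the sample names, made with a Cre in the Lyz2 locus) received rounds of 5 days of DDC separated by 3 days of chow over 21 days, and tissue was taken on day 22. The mice were on the C57BL/6 background. Mice of both genotypes that received a control diet on the same schedule gave 9 further IBA1 segments (6 periportal and 3 parenchymal), used below beside the DDC values. Periportal ROIs were outlined at the ductular reaction and parenchymal ROIs elsewhere, IBA1 staining then marked the area whose probes were collected, and no label ties a segment to a mouse. Segments may therefore share a mouse or a section, which makes p-values over segments too small to stand for mice.

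Kupffer cells are the resident macrophages of the liver sinusoids, where they clear particles and old red cells from portal blood. Injury brings monocytes into the liver, which become macrophages that lack many Kupffer cell genes for some time and that often gather where ducts and scar form. IBA1, the product of Aif1, is carried by both kinds of macrophage. An IBA1 segment also holds RNA of cells that lie against the stained area, so levels of hepatocyte, duct and fibroblast genes are given beside those of macrophage genes.

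Depth ran in opposite directions in the 2 genotypes. WT periportal segments held 20319 to 34302 counts, and the WT parenchymal segments held 39812 (segment 010) and 106664 (segment 012). Trail.mye periportal segments held 158219 to 568719 counts, and the Trail.mye parenchymal segments held 33832 (037) and 48357 (038). No value was below 1 count, and 45.6 to 69.9% of genes were at 1 count in WT periportal segments, against 0.0 to 1.97% in Trail.mye periportal segments. Among the parenchymal segments this share was 51.0% (010), 14.7% (012), 42.1% (037) and 32.7% (038). Q3-normalized counts, which put every segment at one 75th percentile, are used below as levels. In that unit 1 count was worth 3.50 to 5.25 in WT periportal, 0.198 to 0.808 in Trail.mye periportal and 1.50 to 3.50 in parenchymal segments. Levels near these are at the floor of 1 count. In the deep Trail.mye periportal segments the negative probe, a measure of background, was itself above 1 count, most of all in segment 035. Low levels there can therefore be background although they lie above that floor. Macrophage identity was checked with 12 pan-macrophage genes, all of which were measured, and their summed level was 474 to 1083 in periportal and 389 to 720 in parenchymal segments. Aif1 itself, which the staining selected, had a log2 fold change of 0.17 ± 0.39 (SE; adjusted p = 0.963) between the locations.

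With genotype as a term, 103 genes were higher and 195 were lower in periportal than in parenchymal segments at an adjusted p under 0.05, of 10547 genes tested (edgeR). These are 0.977% and 1.85% of all genes, and a further measure, that no periportal segment overlapped a parenchymal one, held for 1.62% of all genes on the higher and 1.16% on the lower side. Of the called genes, 66 of the 103 higher and 89 of the 195 lower ones did not overlap between the locations. Log2 fold changes ran from 1.25 to 5.56 among the higher genes, with a median of 1.99 (1.84 when the 13 genes at 1 count in every parenchymal segment are set to their lower bound). Those of the lower genes ran from 1.03 to 3.08 in size, with a median of -1.37. The split depended on the method. It was 81 higher and 357 lower with DESeq2 and 77 and 84 after thinning. More genes were higher than lower with limma (281 and 229 with a pseudocount of 0.5, 287 and 268 with 1) and in the unpaired two-group test (151 and 77). The same held with filterByExpr (214 and 207), which kept only 989 genes for the test, and with an unadjusted p and a log2 fold change beyond 1 (451 and 344). The count of 298 genes in both directions was 136 without Trail.mye parenchymal segment 038, 146 without WT parenchymal segment 012 and 161 after thinning to one total. The median of all genes was 0.14, against which these values can be read, and it was 0.03 with TMM factors and -0.05 with DESeq2.

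Among genes called without overlap between the locations, those with the highest fold change on the periportal side were mostly genes of the extracellular matrix. Mgp, which encodes matrix Gla protein, an inhibitor of calcification made by portal fibroblasts among others, had a level of 121 at its lowest, 170 at its median and 263 at its highest in the 9 periportal segments. In parenchymal segments it was 3.50 (010), 3.00 (012), 3.50 (037) and 5.25 (038), which are 1 or 2 counts each. The means were 182 ± 51.7 (SD, n = 9) and 3.81 ± 0.987 (SD, n = 4), with a fitted log2 difference of 5.56 ± 0.51 (SE). Pooled over segments, 2103 periportal against 6 parenchymal counts gave a ratio of 48.8 after scaling, with an exact 95% interval of 22.4 to 133 that covers counting error only. Col3a1, a fibrillar collagen chain, ranged from 232 over 341 (median) to 603 against 10.5, 12.0, 45.5 and 18.4, a log2 fold change of 4.23 ± 0.43. Gas6, the ligand of the receptors Axl and Mertk that macrophages use to take up dying cells, ranged from 36.8 over 80.3 to 114 against 7.00, 3.00, 14.0 and 2.63, a log2 fold change of 3.80 ± 0.50. Every periportal segment of both genotypes stood above every parenchymal segment for these 3 genes. The other 7 of the 10 such genes were Col1a1 (3.97 on the log2 scale), Col1a2 (3.64), the collagen-binding protein gene Dpt (3.38), the fibulin gene Fbln1 (3.36), Ccdc80 (3.25), Col5a2 (3.06) and the protease inhibitor gene Timp3 (3.06). Their calls held under all alternatives tried, each segment left out in turn included. Fbln1 and Col5a2 stood at 1 to 3 counts in the parenchymal segments, and their pooled ratios were 10.1 (4.31 to 31.4) and 9.22 (4.20 to 25.3).

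On the parenchymal side the called genes without overlap were led by Kupffer cell genes and hepatocyte enzymes. Clec4f, a lectin that among liver cells marks Kupffer cells, had a level of 3.94 at its lowest, 9.70 at its median and 26.3 at its highest in periportal segments. It stood at 70.0 (010), 108 (012), 109 (037) and 81.4 (038) in parenchymal segments, an 8.46-fold difference (log2 -3.08 ± 0.33, SE; adjusted p = 1.14e-08). Cd5l, a secreted scavenger receptor protein that Kupffer cells make, ranged from 5.25 over 13.0 to 36.8 against 109, 164, 98.0 and 155 (log2 -3.01 ± 0.32). The lowest parenchymal segment stood above the highest periportal one for both genes. Clec1b, the receptor for podoplanin, followed with a log2 fold change of -2.36 and Marco, a scavenger receptor, with -2.26. In WT periportal segments 007 and 011 Clec4f and Marco were at 1 count (5.25), as was Cd5l in 011. Clec1b was at 1 count (3.50 or 5.25) in the WT periportal segments other than 009. There the fold changes of these genes are bounded by the floor and are not exact. The remaining genes of the 10 lowest without overlap were Cyp2c29 (-2.47), Apoa4 (-2.26), Gm3776 (-2.17), Cyp1a2 (-2.14), the desaturase gene Scd1 (-2.13) and Cyp2a4 (-2.11). The called genes Vsig4 (-2.21) and Fcna (-2.15) lay in the same range but overlapped between the locations. Calls of Clec1b (adjusted p = 0.0818) and Cyp1a2 (0.568) were lost when all segments were thinned to one total. Marco's was lost in the unpaired two-group test (0.0652). Gm3776 and Cyp2a4 belong to families of near-identical genes whose probes may not tell the copies apart.

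**Figure D1:**
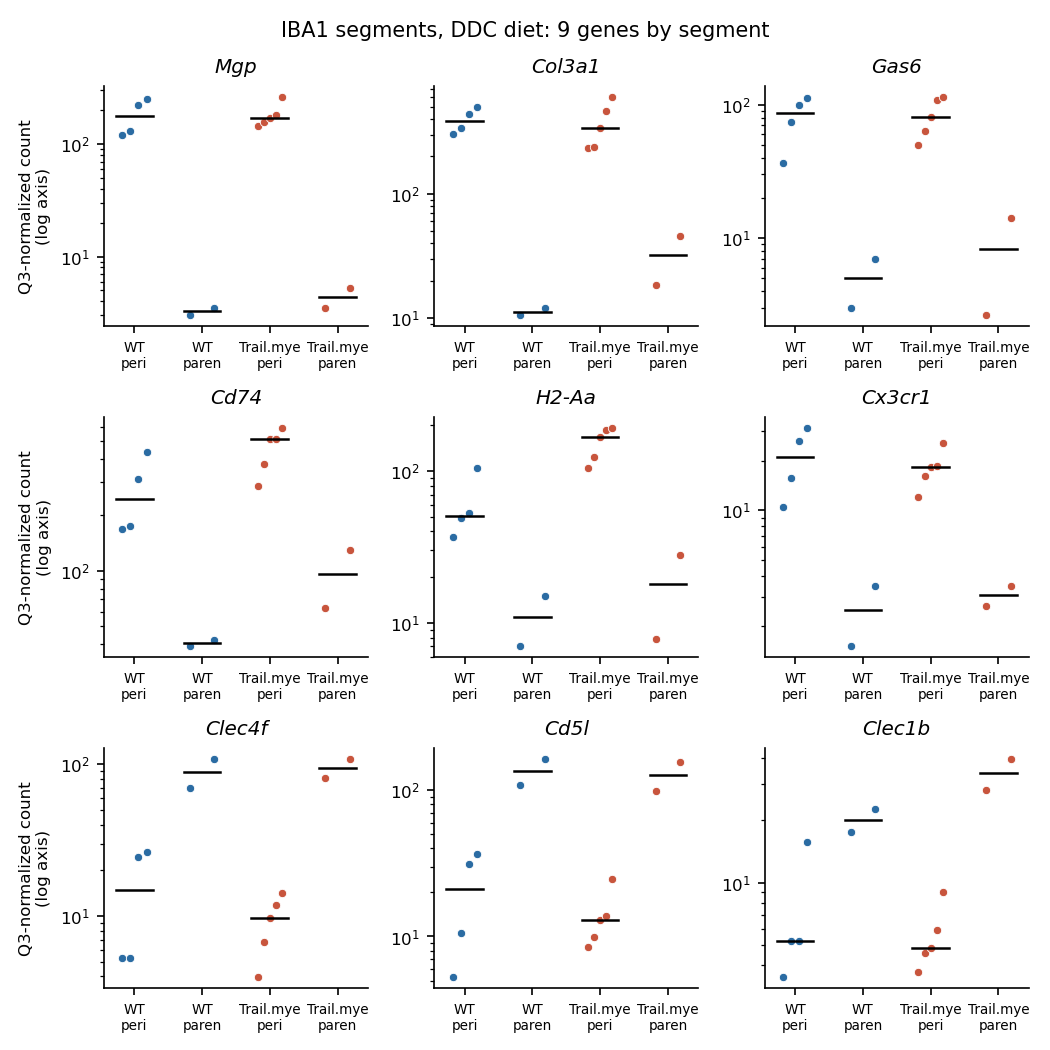
Q3-normalized counts (log axes) of 9 genes in the 13 IBA1 segments of DDC-fed mice, with 1 point per segment, a bar at the median of each group, and periportal (peri) and parenchymal (paren) segments of WT (blue) and Trail.mye (red) side by side. Mgp, Col3a1, Gas6, Cd74, H2-Aa and Cx3cr1 stood higher in all 9 periportal segments, and Clec4f, Cd5l and Clec1b stood higher in all 4 parenchymal segments.

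The promoters of 4 of these genes are shown, Col3a1 for the periportal side and the macrophage and sinusoidal genes Clec4f, Cd5l and Clec1b for the parenchymal side, as 250 bases before to 50 bases after the start of transcription in RefSeq (GRCm38.p6), 5′ to 3′ on the gene's own strand. Col3a1 lies at chr1:45311288-45311587 (plus strand), Clec4f at chr6:83656067-83656366 (minus), Cd5l at chr3:87357631-87357930 (plus) and Clec1b at chr6:129397047-129397346 (plus). Capitals mark matches, on either strand, to TATAAA, the core of a TATA box. They also mark TGANTCA, which AP-1 factors bind, and GTTAAT, a part of the HNF1 site.
Col3a1: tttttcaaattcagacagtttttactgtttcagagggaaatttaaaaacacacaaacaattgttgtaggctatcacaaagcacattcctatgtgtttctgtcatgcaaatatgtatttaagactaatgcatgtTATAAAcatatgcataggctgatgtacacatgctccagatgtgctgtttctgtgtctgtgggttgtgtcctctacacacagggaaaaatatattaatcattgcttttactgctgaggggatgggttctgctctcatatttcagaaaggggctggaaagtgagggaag
Clec4f: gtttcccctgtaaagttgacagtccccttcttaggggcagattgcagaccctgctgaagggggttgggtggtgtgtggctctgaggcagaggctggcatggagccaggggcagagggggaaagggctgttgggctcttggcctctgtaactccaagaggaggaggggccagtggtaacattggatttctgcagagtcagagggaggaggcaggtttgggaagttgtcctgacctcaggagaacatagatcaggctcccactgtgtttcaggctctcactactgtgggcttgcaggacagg
Cd5l: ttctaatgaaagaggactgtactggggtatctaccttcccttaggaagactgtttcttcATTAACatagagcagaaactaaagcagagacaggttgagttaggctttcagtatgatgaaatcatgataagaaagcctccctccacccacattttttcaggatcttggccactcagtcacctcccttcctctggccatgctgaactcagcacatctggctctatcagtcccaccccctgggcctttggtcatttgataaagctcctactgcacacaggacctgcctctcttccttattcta
Clec1b: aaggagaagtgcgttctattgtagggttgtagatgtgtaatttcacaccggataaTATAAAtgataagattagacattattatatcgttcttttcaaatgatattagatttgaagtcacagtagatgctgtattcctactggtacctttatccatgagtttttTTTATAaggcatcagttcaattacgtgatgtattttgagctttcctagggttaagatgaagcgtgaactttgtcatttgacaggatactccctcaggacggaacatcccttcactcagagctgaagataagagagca
A match is a run of letters, not a shown binding site. Promoters were found for 15 of the 20 genes named above, 6 on the periportal and 9 on the parenchymal side. TATAAA was in 2 of the 6 (Col3a1 and Dpt) and in 4 of the 9 (Clec1b, Cyp2a4, Cyp1a2 and Cyp2c29), against 14.2% of 27025 promoters. GTTAAT was in 0 of the 6 and in 2 of the 9 (Cd5l and Cyp2a4), against 7.20%. TGANTCA was in none of the 15, against 7.93%.

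Most Kupffer cell genes were lower around the ducts, whereas 1 pan-macrophage gene was called. Of 12 Kupffer cell genes, 8 were lower in periportal segments, 0 were higher, and the list median was -1.69 on the log2 scale. Besides Clec4f, Cd5l and Marco, the lower genes were Fcna, a ficolin (-2.15 ± 0.33), Vsig4, the complement receptor of the immunoglobulin family (-2.21 ± 0.43, with -0.65 in WT and -2.70 in Trail.mye), Folr2 (-1.73), the iron exporter gene Slc40a1 (-1.54) and Il18bp, the IL-18 inhibitor (-1.64). Timd4, a receptor of long-lived resident macrophages, was at -1.32 ± 0.48 (adjusted p = 0.175), Cd163 at -1.11 (0.446), Cdh5 at -0.89 (0.345) and Id3 at 0.18 (0.939). Of 12 pan-macrophage genes, 1 was higher and 0 were lower, with a list median of 0.05. Csf1r, the receptor for the macrophage growth factor, was at -0.04 ± 0.33 and Cd68, a lysosomal glycoprotein of macrophages, at -0.01 ± 0.34. C1qa, a complement chain that liver macrophages make, was at 0.02 ± 0.31 and Adgre1, which encodes F4/80, at 0.08 ± 0.37. These standard errors leave room for differences of either sign. Lyz2, the lysozyme gene, was the gene that rose (1.83 ± 0.43; adjusted p = 0.00702), at 15.5 to 63.0 in periportal segments against 3.50, 12.0, 3.50 and 10.5. Its locus carries the Cre in Trail.mye mice, and its log2 fold change was 1.97 in WT and 1.62 in Trail.mye.

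Set against each other within a segment, the summed Kupffer list was 0.0827 to 0.347 of the summed pan-macrophage list in the 9 periportal segments (median 0.174). In the 4 parenchymal segments this ratio was 0.677 to 0.919 (median 0.772). It needs no scaling between segments, and it did not overlap between the locations in either genotype. It does depend on depth, since no count is below 1. In WT periportal segments 007 and 011 the summed Kupffer list was 84.0, with 1 count worth 5.25. Most of its 12 genes were thus at 1 count there, and the ratios of these segments are bounded by that floor. With fewer Kupffer cells and less Kupffer cell RNA per macrophage, a segment would show the same ratio, and the 2 cannot be told apart here. The count of 8 lower Kupffer genes was 6 without WT parenchymal segment 012 and 6 without Trail.mye parenchymal segment 038, and 5 after thinning to one total. In the unpaired two-group test it was 3.

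On the control diet the same ratio did not separate the locations. It was 0.636 to 0.873 in the 6 periportal and 0.686 to 0.905 in the 3 parenchymal IBA1 segments of control diet-fed mice, ranges that overlap each other and the parenchymal range on DDC. Clec4f ranged from 72.2 over 116 to 215 in control periportal segments and was 42.0 to 146 in control parenchymal segments. The difference between the diets in the location effect was tested in a fit over all 22 IBA1 segments, where 3 genes were called, 0.0284% of all genes. Clec4f had a difference of -3.75 ± 0.53 on the log2 scale (SE) (adjusted p = 1.09e-05), from 0.82 by location on the control diet. That 0.82 is the mean of both genotypes. In WT control segments Clec4f was at 215 and 110 against 42.0 in the only parenchymal segment (004). In Trail.mye it was at 72.2 to 142 against 129 and 146. Only in WT did all control periportal segments stand above the parenchymal side, and no fit could be made without segment 004. Cd5l had a difference of -2.82 (adjusted p = 0.00152), from -0.11 on the control diet. Apoa4, an apolipoprotein of triglyceride-rich particles, was the third at -2.61 (adjusted p = 0.0192), from 0.34, and stood at 79.5 ± 43.5 (SD, n = 6) and 62.8 ± 23.3 (n = 3) on the control diet against 49.2 ± 29.3 (n = 9) and 242 ± 109 (n = 4) on DDC, so that the parenchymal level differed most between the diets. The call of Apoa4 was lost without control segment 005, 026, 028, 030 or 031 and without DDC segment 012 or 038, at log2 differences of -2.40 to -2.67. The count of 3 was 6 without WT DDC segment 009 and 5 without Trail.mye DDC segment 037. The next 2 genes by p were Marco, at -3.32 (adjusted p = 0.0529), whose parenchymal level was 11.5 ± 6.22 (n = 3) on the control diet and 35.1 ± 9.64 (n = 4) on DDC, and the protease gene Mbtps1, at 2.89 (0.0867). Both parenchymal groups were small, the control one with 1 WT and 2 Trail.mye segments, and the WT control segments were at 1 count for 57.7 to 70.3% of genes.

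**Figure D2:**
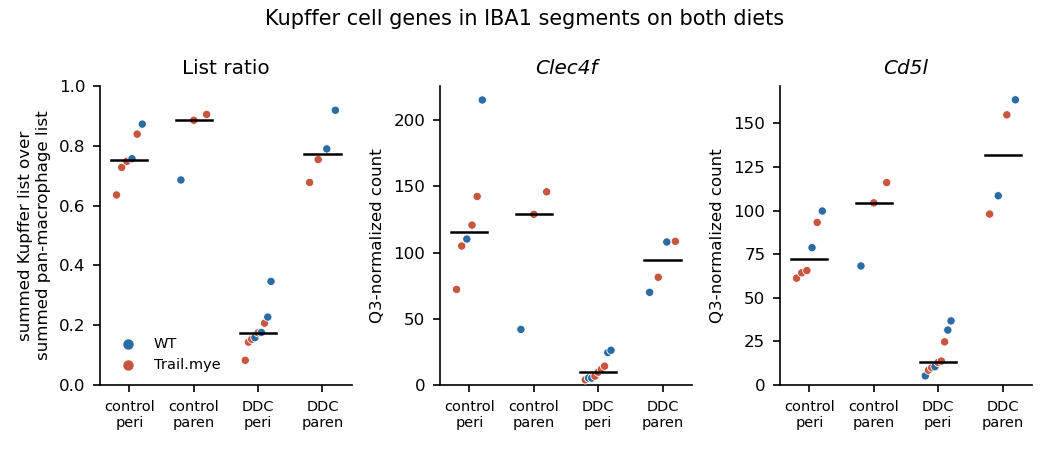
Left, the summed Q3-normalized counts of 12 Kupffer cell genes over those of 12 pan-macrophage genes in each of 22 IBA1 segments; middle and right, Q3-normalized counts of Clec4f and Cd5l in the same segments, by diet and location, with WT in blue, Trail.mye in red and bars at the group medians. The 9 periportal segments of DDC-fed mice lie below all other groups in each panel, with ratios of 0.0827 to 0.347.

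Genes of antigen presentation on MHC class II were higher around the ducts. Of 8 genes of this list, 4 were higher and 0 were lower, with a list median of 1.57. Cd74, the invariant chain that guides MHC class II molecules to the endosome, was at 168 (lowest), 378 (median) and 590 (highest) in periportal segments. Its parenchymal levels were 42.0 (010), 39.0 (012), 130 (037) and 63.0 (038), which gave a log2 fold change of 2.48 ± 0.35. H2-Aa (2.78 ± 0.43) and H2-Ab1 (2.50 ± 0.39), the 2 chains of an MHC class II molecule, were also higher without overlap. H2-Eb1 was higher too (1.74 ± 0.44; adjusted p = 0.0164), but its periportal range of 5.25 to 87.3 overlapped parenchymal segment 037 at 45.5. That call was lost without segment 010, 012 or 038 and in the unpaired two-group test (adjusted p up to 0.252 over all alternatives), and the count of 4 was 3 without any one of these segments. Ctss, the protease that trims the invariant chain, was at 0.87 (adjusted p = 0.190) and the transactivator gene Ciita at 1.41 (0.219). The summed list stood at 436 to 1327 in periportal and 144 to 378 in parenchymal segments.

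Of 14 listed markers of recruited and lipid-associated macrophages 12 were measured, of which 2 were higher and 1 was lower. The 2 that were not measured were Ccr2 and Ly6c2. The list median was 0.51 against 0.14 over all genes, and 11 of the 12 had a log2 fold change above 0. Cx3cr1, the fractalkine receptor of monocyte-derived macrophages, stood at 10.5 to 31.5 in periportal segments and at 1 count in every parenchymal segment. It was at least 2.33-fold higher periportally with 3 counts per segment as the floor (adjusted p = 0.000586). S100a4, a calcium-binding protein of motile cells, was at 10.5 to 63.0 against 3.50 to 6.002 (log2 2.71 ± 0.50). Mmp12, the macrophage elastase, went the other way, at 15.1 to 62.2 against 66.5, 73.5, 102 and 99.8 (-1.24 ± 0.34; adjusted p = 0.0264). Its call was lost without segment 012, 037, 038 or 032 and in the unpaired two-group test. Trem2, a lipid receptor of macrophages near injury, was at 0.45 (adjusted p = 0.764) and Gpnmb at 0.86 (0.456). Among 15 of 20 chemokine and cytokine genes measured, 1 was called higher, Cx3cl1, which encodes the ligand of Cx3cr1. It was at least 1.55-fold higher, at 5.25 to 31.5 against 1 count in every parenchymal segment, a call lost without segment 012 and after thinning, and the list median was 0.62 (0.44 with genes at 1 count set to their bound). Of 13 lysosome and phagocytosis genes none was called by edgeR (2 at an unadjusted p under 0.05), with Ctsl at -0.88 (adjusted p = 0.151) and Psap at 0.67 (0.338).

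Of 18 fibroblast and stellate cell genes, 10 were higher and 0 were lower, with a median of 1.65. Their summed level was 1009 to 2031 in periportal and 207 to 364 in parenchymal segments. Acta2, the actin of myofibroblasts, was among those that rose (1.75 ± 0.48), whereas the stellate cell genes Des and Lrat were at 0.70 and -0.39 without a call. Of 21 measured matrix remodelling genes, 13 were higher and 0 were lower, with a median of 1.57. Col6a1 (2.91 ± 0.50), a chain of the beaded-filament collagen, was at 17.8 to 44.3 against 3.00 to 5.25. Timp2 (2.78 ± 0.50), an inhibitor of matrix proteases, was at 17.8 to 56.3 against 3.50 to 7.00, and the microfibril gene Fbn1 (2.48 ± 0.46) at 16.1 to 38.5 against 2.63 to 6.002. Col6a1 and Timp2 were at 1 to 3 counts in parenchymal segments, with pooled ratios of 8.24 (3.75 to 22.6) and 7.45 (3.75 to 17.4). The part of fibroblast RNA in the IBA1 area was not tested. The count of 13 fell to 6 without segment 038 and to 8 without segment 012, and that of 10 to 7 without either of them.

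Duct and other cell markers gave fewer calls. Of 15 cholangiocyte genes 1 was higher, Spp1, the osteopontin gene of duct cells and of macrophages, at 50.1 to 320 against 21.0, 105, 14.0 and 34.1 (2.10 ± 0.41). Spp1 in segment 012 was within the periportal range, and its call was lost in the unpaired two-group test (adjusted p = 0.0565). Krt19, the keratin of ducts, was at 1.12 (adjusted p = 0.543). The summed cholangiocyte list was 153 to 431 in periportal and 70.0 to 150 in parenchymal segments. Its median log2 fold change was 0.82, or 0.63 without the 3 genes at 1 count in every parenchymal segment. Of the 15 genes, 14 had a log2 fold change above 0, where the median of all genes was 0.14. By genotype the list median was 1.09 in WT and -0.0036 in Trail.mye, against 0.16 over all genes in each. In WT 1 count was worth 3.50 to 5.25 in periportal and 1.50 to 3.50 in parenchymal segments. In Trail.mye it was worth 0.198 to 0.808 and 2.63 to 3.50. The part of this floor in the list medians was not tested. Of 10 measured endothelial genes none was called by edgeR (2 at an unadjusted p under 0.05), with summed levels of 66.5 to 99.9 and 73.5 to 130. Kdr was at -1.34 (adjusted p = 0.203), Stab1 at 0.95 (0.385). Neutrophil genes were mostly unmeasured, with 5 of 11 among the targets, and S100a8, a subunit of calprotectin, was called at least 1.67-fold higher (5.25 to 21.0 against 1 count), a call lost without segment 012 or 038 and after thinning. Of 5 of 12 lymphocyte genes measured none was called by edgeR (2 at an unadjusted p under 0.05). Igkc and Igha, the constant regions of antibody chains, reached 611 and 822 in periportal segment 036 and stayed at or below 25.9 and 12.5 in every other segment. Their log2 fold changes were 4.38 (adjusted p = 0.0762) and 4.15 (0.139), and 1.72 and 0.58 without segment 036. Both were called with counts of 1 set to 0, after thinning and with no genotype term, and Igkc was also called by limma and without segment 032.

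**Figure D3:**
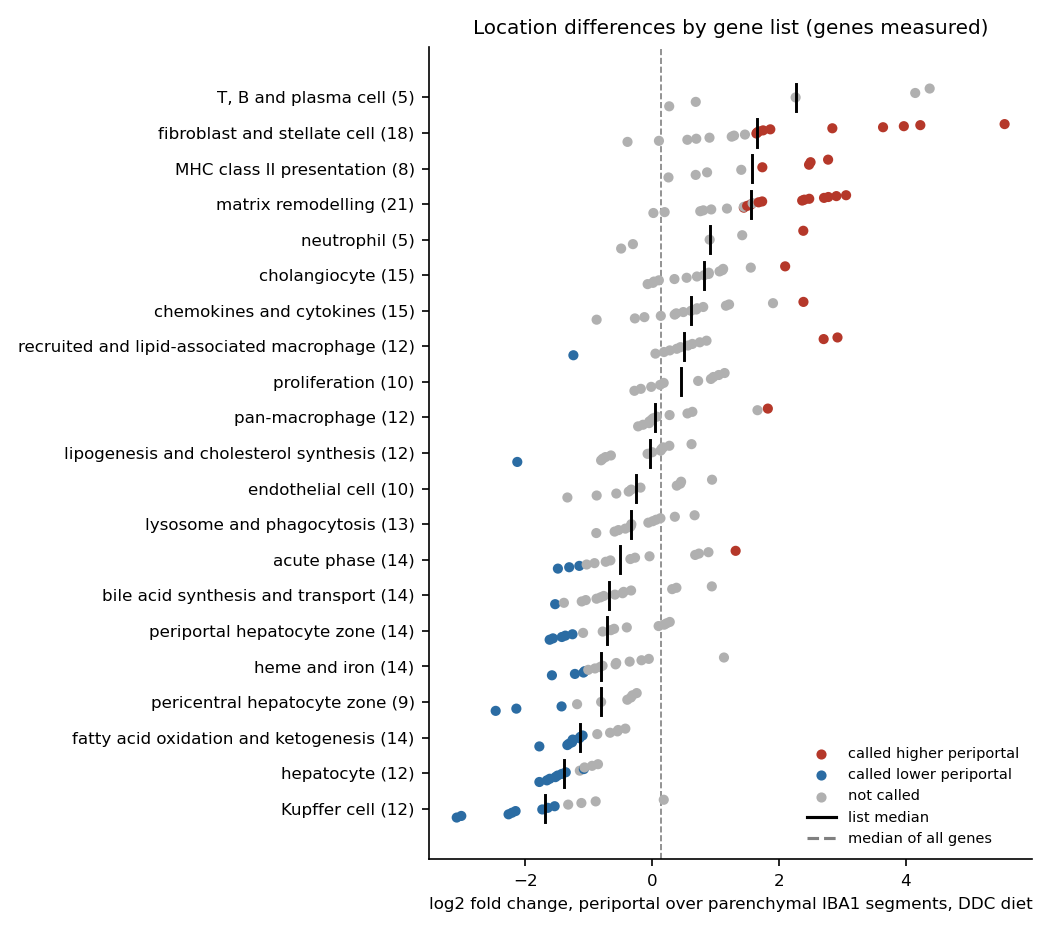
Log2 fold change, periportal over parenchymal IBA1 segments of DDC-fed mice, for the measured genes of 21 lists (number of genes in brackets), with red and blue points for genes called higher and lower, grey points for genes not called, black bars at list medians and a dashed line at the median of all genes (0.14). The fibroblast, matrix and MHC class II lists hold most red points, and the Kupffer cell list has the lowest median (-1.69).

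Of 12 hepatocyte genes 8 were lower around the ducts and 0 were higher, with a median of -1.39, and all 12 had an unadjusted p under 0.05. Alb, the albumin gene, was at 721 (lowest), 1949 (median) and 3524 (highest) in periportal segments. In parenchymal segments it was at 7682 (010), 10233 (012), 2476 (037) and 3850 (038), so the ranges overlapped and the WT parenchymal segments stood above those of Trail.mye (log2 -1.49 ± 0.27). Apoa2 (-1.61), Apoc3 (-1.78) and Tat, the tyrosine-degrading enzyme (-1.66), were lower without overlap. The summed hepatocyte list was 1488 to 6434 in periportal and 5119 to 17218 in parenchymal segments, and its part in the other results was not tested. In the unpaired two-group test the count of 8 was 3, and the calls of Alb (adjusted p = 0.0965) and Tat (0.0560) were lost.

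Hepatocytes near the portal tract make urea and glucose, and those near the central vein oxidise drugs. Of 14 periportal hepatocyte genes, 5 were lower and 0 were higher (median -0.71), and 4 had a log2 fold change above 0. They were Ass1 (-1.62 ± 0.31), Arg1 (-1.56 ± 0.33), Cps1 (-1.42 ± 0.30) and Otc of the urea cycle and Pck1 of glucose synthesis (-1.37 ± 0.31, a call lost without segment 012 or 038). Of 9 of 12 pericentral genes measured, 3 were lower and 0 were higher (median -0.80), the P450 genes Cyp2c29, Cyp1a2 and Cyp2e1 (-1.43 ± 0.32). In the unpaired two-group test the calls of Ass1 (adjusted p = 0.0642), Arg1 (0.194), Pck1 and Cyp2e1 (0.0561) were lost, and Pck1's was also lost after thinning. In WT the median of the periportal zone list was -1.67, and in Trail.mye it was -0.05. On the control diet 6 genes were called by location, 0.0569% of all genes, all lower in periportal segments. They were Cyp2e1 (-2.35), Cyp1a2 (-2.20), Oat, Rgn, Rnase4 and Eif2d, of which 3 are in the pericentral list, and the count was 2 without WT control segment 003. The medians there were 0.31 for the periportal zone and -1.50 for the pericentral zone, so the list of portal hepatocyte genes had opposite signs on the 2 diets (no test was made of the list).

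Metabolic lists differed in how many of their genes were called. Of 14 genes of fatty acid oxidation and ketogenesis, 9 were lower and 0 were higher (median -1.14). Fabp1, the fatty acid carrier of the hepatocyte, was at 10.5 to 84.0 against 168, 212, 42.0 and 63.0 (-1.78 ± 0.32). Acadl (-1.26) and Acadm (-1.25) are mitochondrial dehydrogenases of fatty acid oxidation, and both calls were lost without segment 038, that of Acadm also without 012 or 013. The count of 9 was 2 without segment 038, 3 without segment 012, 3 without WT periportal segment 013, 6 without WT segment 007 or 011 or Trail.mye segment 032, 4 with counts of 1 set to 0, 1 after thinning and 0 in the unpaired two-group test. Of 12 genes of lipid synthesis 6 had a log2 fold change above 0 (median -0.03) and 1 was lower, Scd1, at 21.0 to 78.8 against 207, 216, 154 and 110. Of 14 heme and iron genes 4 were lower. These were Hamp, the iron hormone (-1.58 ± 0.35), Hmox1, which breaks down heme (-1.22), Alas1, the first enzyme of heme synthesis (-1.08), and Hpx, which binds free heme (-1.06). The calls of Hmox1, Alas1 and Hpx were each lost without segment 010, 012, 038 or 007, Hmox1's also without 009, Alas1's also without 011, 013, 034 or 037 and Hpx's also without 011, 013, 032 or 034. Hamp stood at 518 and 590 in WT parenchymal segments 010 and 012 and at 66.5 and 70.9 in Trail.mye parenchymal segments 037 and 038. Its periportal range was 30.9 to 173, and its call was lost without segment 012. Of 14 bile acid genes 1 was lower, the uptake carrier gene Slco1b2 (-1.53 ± 0.34), a call lost without segment 010 or 038. Of 14 acute phase genes 3 were lower, Apcs (-1.49), Itih4 (-1.31, lost without segment 012) and Fga (-1.15, lost without 010, 012 or 038), and 1 was higher. That gene was Serpina3n, a serine protease inhibitor, at 73.5 to 154 against 28.0, 63.0, 31.5 and 49.9 (1.32 ± 0.34), and its call was lost with TMM factors and without segment 010, 013, 037 or 038 (adjusted p up to 0.0967 over all alternatives). In the unpaired two-group test the calls of Fabp1, Acadl, Acadm, Hamp, Hmox1, Hpx, Apcs, Itih4 and Fga were lost. After thinning those of Acadl, Acadm, Hmox1, Alas1, Slco1b2, Apcs (adjusted p = 0.446) and Itih4 were lost. Of 10 measured proliferation genes none was called by edgeR (1 at an unadjusted p under 0.05), with Stmn1 at 1.05 (adjusted p = 0.408) and Ccnb1 at 1.14 (0.536). Of 3 of 5 sex-linked genes measured none was called either (1 at an unadjusted p under 0.05).

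The PanCK segments of the same 9 periportal ROIs show what the epithelium next to the IBA1 area held. Col3a1 was higher in the IBA1 than in the PanCK segment of all 9 ROIs, with 48.9 to 185 in PanCK segments. Cd74 (61.8 to 172 in PanCK segments) and Mgp (21.7 to 96.4) were also higher in the IBA1 segment in all 9. Gas6 was higher in the IBA1 segment in 4 of 9 ROIs, at 50.9 to 124 in PanCK segments, so its periportal level was shared by both masks. Spp1 went the other way in each of the 9 ROIs, at 344 to 1878 in PanCK segments. Alb, with 603 to 2301 in PanCK segments, was higher in the IBA1 segment in 6 of 9. Of the 103 genes higher in periportal IBA1 segments, 58 (56.3%) were above the PanCK segment in all 9 ROIs, and 3 were below it in all 9. Among all genes 3.45% were above it in all 9. Of the 195 lower genes, 5 were above it in all 9. The called genes were chosen on the same periportal IBA1 values, so these shares are fixed in part by the call and give no separate result.

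**Figure D4:**
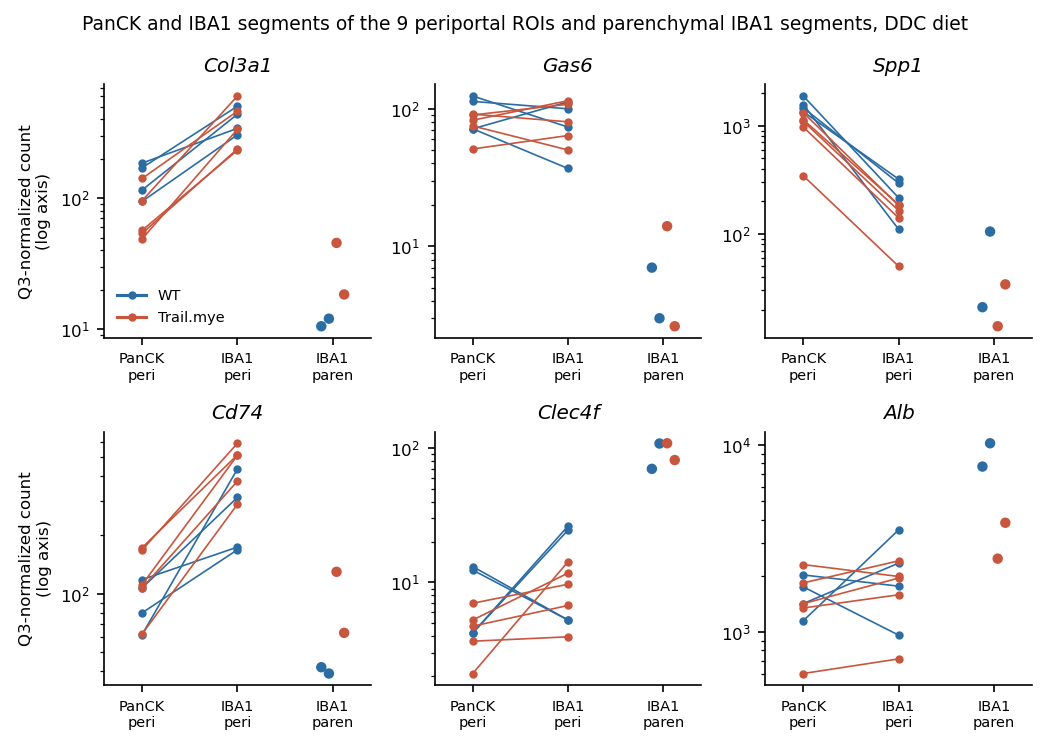
Q3-normalized counts (log axes) of 6 genes in the PanCK and IBA1 segments of the 9 periportal ROIs of DDC-fed mice, joined by a line within an ROI, and in the 4 parenchymal IBA1 segments, with WT in blue and Trail.mye in red. Col3a1 and Cd74 rise from PanCK to IBA1 in all 9 ROIs, Spp1 falls in all 9, and Gas6 is similar in both.

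Within WT, 34 genes were higher and 120 lower in periportal segments (1.46% of all genes called), and within Trail.mye 17 were higher and 18 lower (0.332%). For Clec4f the log2 fold change was -2.49 in WT and -3.38 in Trail.mye, with means of 15.3 ± 11.6 (SD, n = 4) against 89.0 ± 26.9 (n = 2) and 9.27 ± 4.06 (n = 5) against 95.0 ± 19.2 (n = 2). Mgp differed by 5.79 in WT and 5.31 in Trail.mye, and Cd74 by 2.76 and 2.26. These differences had the same sign in both genotypes, which the naming rule required of Clec4f and Mgp. Cd74 was called on both genotypes together, so its shared sign is fixed in part by the call. The deeper location was the parenchyma in WT and the periportal zone in Trail.mye, and the part of depth was not tested. The WT count of 154 was 7 without segment 012, 47 without 010, 51 without 011 and 64 without 007 or 013. The Trail.mye count of 35 was 3 without segment 038, 16 without 037 and 20 without 032 or 034, and its split was 13 higher and 51 lower with DESeq2 and 7 and 15 with TMM factors. It was 82 and 19 or 85 and 22 with limma (pseudocounts 0.5 and 1), 40 and 19 with counts of 1 set to 0, and 31 and 21 in one fit of all 22 IBA1 segments. In WT more genes were lower than higher in each of these settings, with 113 and 213 by limma (pseudocount 0.5) and 21 and 31 after thinning. With filterByExpr, which kept 989 genes, the WT split was 108 and 126.

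No gene was called for a difference between the genotypes in its location effect (edgeR, 0 genes, 0.0% of all, with 333 at an unadjusted p under 0.05). DESeq2 called 0 genes, limma 1, edgeR with counts of 1 set to 0 called 3, and without WT periportal segment 009 it called 1. The 5 genes with the smallest p were Cyp2f2, Ccni, Hbb-b1, Phb and Rfk, each with an adjusted p of 0.999. Cyp2f2, a P450 of portal hepatocytes, was at 10.5 to 31.5 in WT and 15.5 to 32.3 in Trail.mye periportal segments. In the parenchyma it was at 59.5 and 88.5 in WT and at 17.5 and 7.88 in Trail.mye. Its log2 fold change was -2.01 in WT and 1.05 in Trail.mye, a difference of 3.06. Hbb-b1, a chain of haemoglobin, was at 263 and 60.0 in WT parenchymal segments and at 24.5 and 15.8 in those of Trail.mye, with a difference of 3.42. Ccni, Phb and Rfk stood at 24.5 and 28.5, 28.0 and 34.5, and 21.0 and 24.0 in the 2 WT parenchymal segments. In those of Trail.mye they were at 3.50 and 2.63, 10.5 and 5.25, and 3.50 and 5.25, which for Ccni is 1 count in both. Depth and the share of genes at 1 count moved with location in opposite directions in the 2 genotypes, as given above, and their part in these values was not tested.

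**Figure D5:**
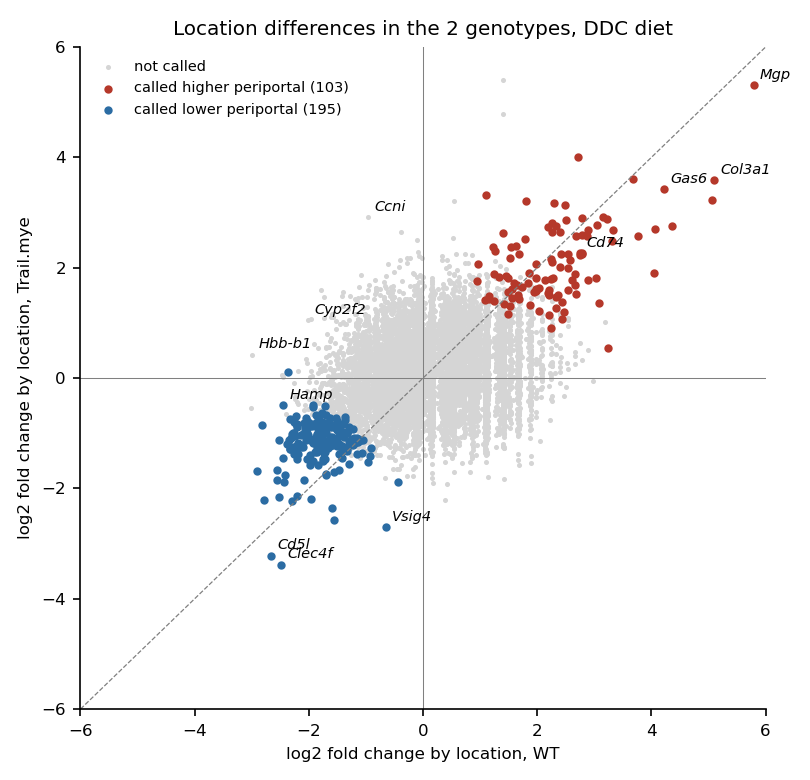
Log2 fold change by location (periportal over parenchymal IBA1 segments, DDC diet) in WT (x axis) and Trail.mye (y axis) for 10547 genes, with the 103 genes called higher in red, the 195 called lower in blue, all others in grey and a dashed line of equal change. The called genes were chosen on both genotypes together, so their place in the same-sign quadrants is fixed in part by the call.

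The control diet also gave a view of the called genes in segments that took no part in the call. Of the 103 genes higher on DDC, 74 (71.8%) had a positive log2 fold change by location on the control diet, against 50.7% of all genes. Of the 195 lower genes, 147 (75.4%) had a negative one, against 49.3% of all genes. The sizes were smaller there, with a median of 0.34 for the higher and -0.26 for the lower genes. None of the 103 and 3 of the 195 were called on the control diet, and those 3 are 1.54% of the lower genes and stand among 6 control calls. Mgp, at 3.50 to 58.4 in control periportal segments against 2.92 to 5.25 in control parenchymal segments, had a log2 fold change of 1.55 on that diet. Its difference between the diets was 4.00 (adjusted p = 0.987).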

How the data were processed

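Liver sections were profiled by the authors on the NanoString GeoMx platform with the mouse Whole Transcriptome Atlas. The expected counts are the authors' deposited values per target and segment, made after 18 cycles of amplification and a filter on the limit of quantification. The signal values are the authors' deposited Q3-normalized counts, checked to be 1 factor times the counts in all 38 segments (75th percentile 10.5). The submitters' processing notes name bcl2fastq and mm10, while aligner, deduplication settings and the origin of counts of exactly 1 were not stated in the sources used here. Counts of 3 genes that were not whole were rounded, and the negative probe was left out. Totals per IBA1 segment on DDC were 20319 to 568719. Bounds cover counting error only.

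In R 4.3.3, location was tested by the quasi-likelihood F-test of edgeR 4.0.16 (upper-quartile factors, genotype as an additive term, 10 residual degrees of freedom) over 10547 genes, two-sided, with Benjamini-Hochberg adjustment. Within-genotype and genotype contrasts used a coefficient per group over the same 13 segments (9 degrees of freedom), and the control diet and diet contrasts a coefficient per group over 22 IBA1 segments (14). The standard error is the size of the log2 fold change over the square root of F. Fits were tested on simulated data. The smallest chi-square over degrees of freedom between 2 segments of a group was 1.13 (032 and 033), and no segment was left out as a duplicate. A value near 1 is what 2 draws from the same RNA would give, so this measure cannot tell whether segments share a source.

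Named genes are the 10 highest and 10 lowest log2 fold changes among called genes without overlap and with the same sign in both genotypes, the 5 smallest p by genotype and by diet, up to 4 members per gene list by adjusted p (up to 2 where none was called), and Aif1. Other list members are named beside their list. Where a called gene named by these rules had 1 to 3 counts in the parenchymal segments, the ratio of summed counts was scaled by the summed Q3 factors. It was given an exact conditional binomial interval. Members, lists and rules were chosen with earlier results of these data known. Symbols of 10512 of the genes matched RefSeq (GRCm38.p6). Alternatives were TMM, DESeq2 1.42.0, limma 3.58.1 on log2 of the value plus 1 or 0.5, filterByExpr, counts of 1 set to 0, thinning to 20319 counts, all 22 segments in one fit, no genotype term, the methods' unpaired two-group test, the mean of both within-genotype contrasts, an unadjusted threshold, and each segment left out. The list counts under these settings were added after the data were seen. Python 3.11.15 and matplotlib 3.10.9 were used for the plots.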

Additional observations from a re-analysis of the deposited data

Results flagged for a closer look

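Of 152 sets of 4 or 5 segments of a genotype tested for a segment far from the rest of its group, 17 held one. The rule flags about 1 in 20 sets when values are normally distributed. These levels have a floor at 1 count and most of the sets are of genes chosen from the same data. That rate therefore gives no expected number here. In WT periportal segments the values that stood apart were Clec1b at 15.8 and, in another segment (011), Lyz2 at 63.0 and Kdr at 15.8. WT periportal segment 013, the deepest of its group, stood apart for Timp2 at 52.5, Fbn1 at 38.5, Igkc at 7.00, Igha at 7.00 and Uty at 3.50, the last 3 from 1 or 2 counts, and segment 007 for Stmn1 at 5.25, which was 1 count. In Trail.mye periportal segment 036 Igkc reached 611, Igha 822, Ccdc80 120 and Stmn1 12.8. In Trail.mye periportal segment 035 the total count was 568719, with Arg1 at 43.2, Ctsl at 50.5 and Uty at 6.14. All levels are Q3-normalized counts.

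The location effect differed between the diets for Clec4f (-3.75 on the log2 scale, DDC minus control), Cd5l (-2.82) and Apoa4 (-2.61) by the test of the difference itself. The part of depth, which differed between the diets and genotypes, was not tested.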

How the results depend on the processing

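Of 58 called genes named by rule, 31 kept their call in every alternative tried and none reversed. Over 1762 values of 74 named genes, 1653 kept direction and side of the threshold, 87 lost the call, 17 gained it and 5 reversed. The 5 were in Ccni (0.45; -0.16 thinned; -0.053 without segment 038, up to 1.14 without 012), Phb (-0.31; 0.16 without 012, down to -0.78 without 038), Kdr (-1.34; 0.065 without 037, down to -1.86 without 038) and Aif1 (0.17; -0.011 without 037, 0.49 without 012, up to 0.83 over all alternatives). Beyond these, the diet difference of Mbtps1 became -1.91 after thinning, and the causes were not tested. For location on DDC the count of 298 was 555 and 510 with limma (pseudocounts 1 and 0.5), 542 with no genotype term, 161 thinned, 795 with an unadjusted p and a log2 fold change beyond 1, and 136 to 312 with one segment left out. In WT 154 became 234 with filterByExpr, 382 and 326 with limma, 52 thinned, 861 unadjusted, and 7 to 214 with one left out. In Trail.mye 35 became 64 with DESeq2, 22 with TMM, 59 with counts of 1 set to 0, 241 with filterByExpr, 107 and 101 with limma, 592 unadjusted, and 3 to 47 with one left out. By genotype 0 became 3 with counts of 1 set to 0, 1 and 1 with limma, 333 unadjusted, and 0 to 1 with one left out. By diet 3 became 60 with DESeq2, 14 with counts of 1 set to 0, 11 with filterByExpr, 49 and 33 with limma, 5 thinned, 369 unadjusted, and 2 to 6 with one left out. On the control diet 6 became 2 thinned, 132 unadjusted, and 2 to 6 with one left out. The filterByExpr counts have another base than the 10547 genes of the main fits. It kept 989 genes for the fits on DDC and 5975 for the fit of both diets. Leaving out WT control parenchymal segment 004 could not be fitted, since it empties a group. No paired analysis was possible because periportal and parenchymal ROIs share no number. Differences under a few counts per gene were not detectable at the depth of the WT periportal and Trail.mye parenchymal segments.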

Other observations

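Further gene groups were picked after their values had been seen, so their counts carry no test and can be read only beside the 0.977% and 1.85% of all genes called higher and lower. Of 14 apolipoprotein genes, 10 were lower in periportal segments and 0 higher, with a median log2 fold change of -1.44. Of 20 glutathione S-transferase genes, 8 were lower and 0 higher, among them Gstm1 (-1.96) and Gstm3 (-2.10), and of 24 genes of cytochrome P450 family 2, 7 were lower and 0 higher. Copies within these families resemble each other, and probes may not tell them apart. Of 8 keratin genes 2 were lower, Krt8 (-1.70) and Krt18 (-1.48), which hepatocytes and duct cells both make.

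On the periportal side, 7 of 15 fibulin, fibrillin and microfibril genes were higher and 0 lower, with Mfap4 at least 2.54-fold higher. Of 8 genes of the Ms4a family, many of them membrane proteins of myeloid cells, 3 were higher (Ms4a4a 1.90, Ms4a6b 1.86 and Ms4a6c 1.66) and 0 lower. Of 9 S100 genes 3 were higher, S100a4, S100a6 (1.69) and S100a8. Ccl19 (2.36 ± 0.53, SE) and Ccl21a (1.93 ± 0.52), chemokines that guide dendritic cells and lymphocytes, and the complement receptor gene C3ar1 (1.63 ± 0.43) were also higher. Ccl19 was at 5.25 to 36.8 and Ccl21a at 5.25 to 42.6, each against 2.63 to 7.00 in parenchymal segments. Both overlapped between the locations and were near the floor of 1 count in the parenchyma, so their fold changes are not exact. Sfrp1, a secreted inhibitor of Wnt signals, was at least 2.58-fold higher. Spic, a transcription factor of iron-recycling macrophages, was lower (-1.62 ± 0.38), as was Cd1d1, which presents lipids (-1.68 ± 0.30).

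The summed MHC class II list was 0.822 to 1.84 of the summed pan-macrophage list in periportal and 0.265 to 0.581 in parenchymal segments on DDC. On the control diet these ranges were 0.438 to 1.31 and 0.570 to 0.648, and they overlapped.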
